A study of Mus musculus with 56 samples.

Results

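The 44 collagen genes described here are all genes of the deposited bulk expression table whose symbol is COL, a number, A and a number, out of 24034 genes in the table. They were sorted by class of the protein: 11 fibrillar genes, 6 of basement membranes, 2 multiplexins, 9 FACITs (fibril-associated collagens with interrupted triple helices), 6 beaded filament genes, 3 short chain network genes, 4 transmembrane collagens and 3 others. RNA was sequenced from C57BL/6 mouse liver. There were 6 healthy livers and 20 liver tumours made by hydrodynamic tail vein injection, which drives plasmid DNA mainly into hepatocytes; the labels list that method for the healthy livers too, and say no more of what those animals received. All 20 tumours carried MYC and NICD, the intracellular domain of NOTCH1, with either luc (luciferase) or lucOS (luciferase carrying model T cell antigens). The groups were 6 luc and 6 lucOS tumours whose titles give no sex, and 4 luc and 4 lucOS tumours titled as male. The sources used here state no age, no sex for the other titles and no promoter for the plasmids. Nothing there says whether each library is a separate animal either, so p-values measure the spread between these libraries. The numbers in the titles start with AL15 (3) or PM5 (3) for healthy livers, with AL51 (5 libraries in all: 3 luc and 2 lucOS) or AL54 (3 luc and 4 lucOS) for tumours without a sex, and with AL75 for all 8 male tumours, so that male sex and that animal series cannot be told apart.

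Collagens are triple helices of 3 chains. Fibrillar collagens (types I, II, III, V, XI, XXIV and XXVII) make up or nucleate the banded fibrils of scar and stroma, type IV chains form the sheet of basement membranes, FACITs coat fibrils, and type VI chains form beaded filaments around cells. In normal liver, fibril-forming collagens are made chiefly by stellate cells and portal fibroblasts and type XVIII largely by hepatocytes, and fibrosis is marked by a rise of types I and III.

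Values are TPM, a transcript abundance scaled by gene length and library total, so that levels of different genes can be compared. The depth behind them is unknown, and a level in bulk tissue cannot tell fewer cells of a type from less RNA per cell. The defining genes of hepatocytes were low in the tumours: the summed TPM of 10 hepatocyte markers ran from 149443 to 193618 in healthy liver and from 355 to 18006 in the tumours, and all 10 were lower in the test. Because hepatocyte transcripts fill much of a healthy library, the scale matters. The median of all genes tested was 1.03 log2 units higher in tumours than in healthy liver, 71.8% of 15767 genes were called higher, and 81.0% of all calls were higher. With median ratio scaling the median gene differed by 0.05 and 51.0% of the calls were higher. Collagen changes below are therefore set beside the value 1.03.

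In the tumours, collagen transcripts were more abundant in sum and their make-up was different. Summed over all 44 genes, collagen came to 361 ± 25.6 TPM in healthy liver (SD, n = 6), 1421 ± 514 in luc tumours (n = 6), 1510 ± 473 in lucOS tumours (n = 6), 2107 ± 499 in luc male tumours (n = 4) and 1882 ± 382 in lucOS male tumours (n = 4). In healthy liver a single gene, Col18a1, supplied 79.0% of that sum, and in the tumour groups it supplied 6.39% to 9.32%. Col4a1 and Col4a2 ranked first and second in every tumour group. The basement membrane class held 4.18% of collagen TPM in healthy liver and 37.8% to 47.2% in the tumour groups, and the fibrillar class 8.01% and 24.7% to 27.5%.

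**Figure D1:**
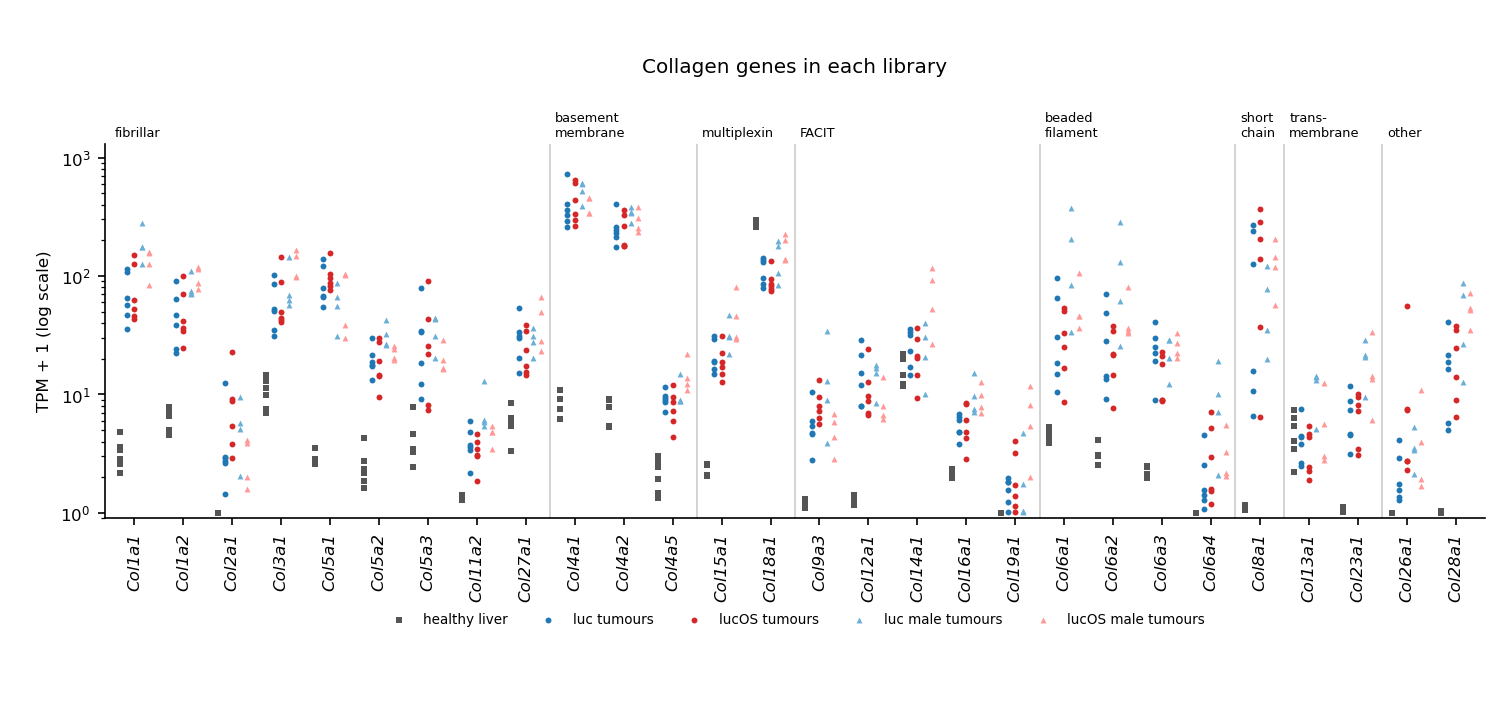
TPM + 1 on a log scale for the 28 collagen genes whose mean reached 5 TPM in at least 1 group, one point per library, ordered by class. Healthy livers are squares at the left of each gene; tumours lie above them for most genes, below them for Col18a1, and among them for Col14a1 and Col13a1, with the lowest Col5a3 and Col19a1 tumours also close to healthy liver.

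Tumours and healthy liver were compared for every gene with limma on log2(TPM + 1), taking the mean of the 4 tumour groups against healthy liver. Genes had to reach 1 TPM in at least 4 of the 26 libraries, and p-values were adjusted by Benjamini-Hochberg over all genes tested. Of the 44 collagen genes 35 were tested: 32 were higher in tumours, 2 were lower (Col18a1 and Col20a1) and 1 (Col13a1) was not called, beside 88.7% of all genes called. The other 9 (Col4a3, Col4a4, Col22a1, Col6a5, Col6a6, Col8a2, Col17a1, Col25a1 and Col7a1) were too low to be tested. The median log2 difference was 2.37 for the 35 collagens and 1.03 for all genes tested. With median ratio scaling 31 were higher and 3 lower, with a collagen median of 1.60, and 42.9% of all genes were higher. With quantile normalization 29 were higher and 3 lower, with a collagen median of 1.42. Of all 15767 genes 6772 were higher and 5953 lower under that setting, with a median of 0.10. Of the 35, 16 reached 1 TPM in no healthy liver and so could pass the filter only through tumours, and those 16 were all higher. They were Col2a1, Col11a1, Col11a2, Col24a1, Col4a6, Col9a1, Col9a2, Col9a3, Col12a1, Col19a1, Col6a4, Col8a1, Col10a1, Col23a1, Col26a1 and Col28a1. Their test values against healthy liver are given as a description. Of the other 19, 16 were higher and 2 lower. Taken alone against healthy liver, luc tumours had 28 collagens higher and 2 lower (all genes: 85.6% called, 68.2% higher, 17.4% lower). For lucOS tumours these were 31 and 2 (85.6%, 68.6%, 17.0%), for luc male 30 and 1 (84.1%, 68.3%, 15.8%) and for lucOS male 32 and 1 (84.7%, 70.2%, 14.5%). These 4 comparisons share the healthy livers. In 32 of the 44 genes every tumour lay above every healthy liver, and in 1, Col18a1, every tumour lay below. Among the 35 tested the counts were 30 and 1, and across all genes tested these shares were 54.8% and 9.83%.

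**Figure D2:**
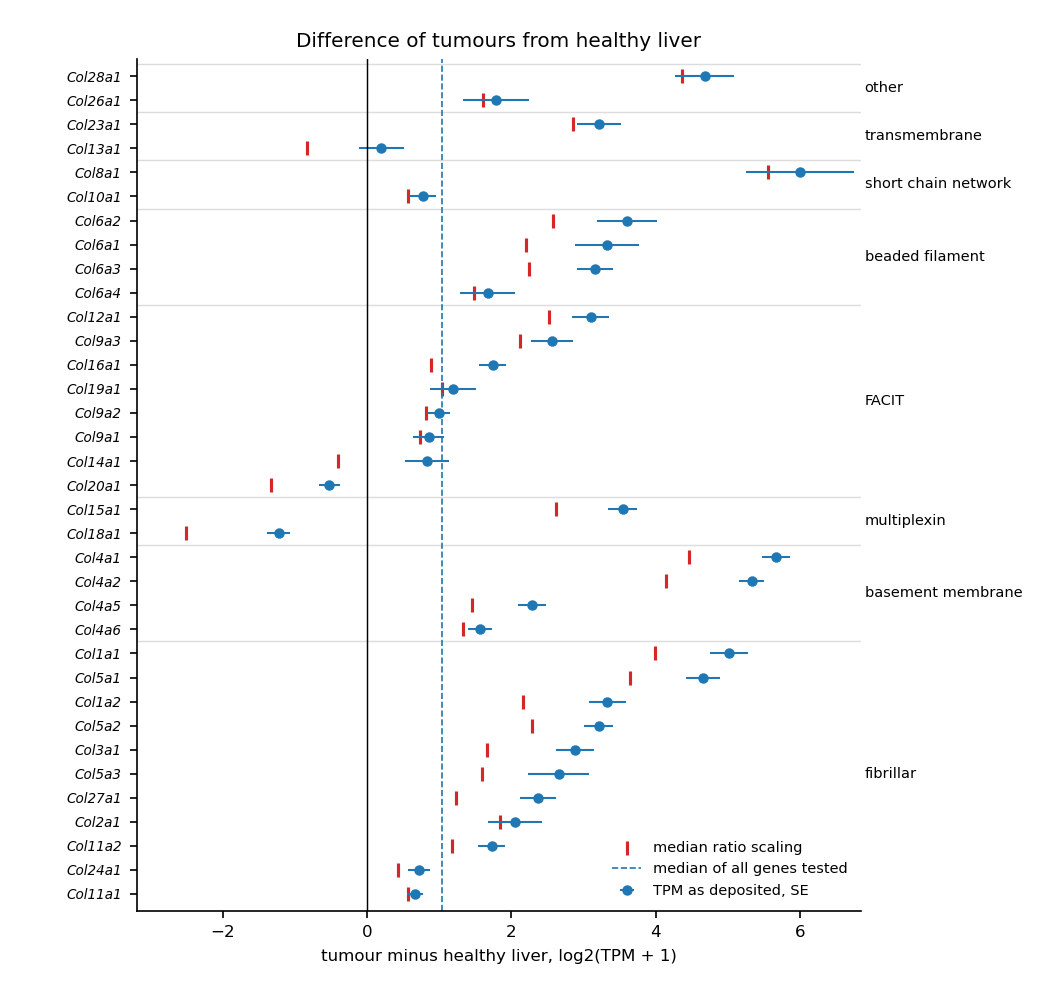
Difference between tumours and healthy liver in log2(TPM + 1) for the 35 tested collagens by class, with bars of 1 SE, and the same difference after median ratio scaling (red ticks). Most collagens lie to the right of the median of all genes (dashed line, 1.03); Col18a1 and Col20a1 lie below 0 under both scalings, and Col14a1 and Col13a1 fall below 0 after median ratio scaling.

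Basement membrane collagens had the highest levels in the tumours. Col4a1 and Col4a2 encode the alpha 1 and alpha 2 chains that assemble into the common type IV network of vessels and epithelia. Col4a1 was at 9.92, 9.87, 8.08, 6.59, 5.16 and 5.23 TPM in the 6 healthy livers; its lowest, median and highest values were 258, 344 and 721 TPM in luc tumours and 261, 386 and 645 in lucOS tumours. The luc male tumours had 525, 613, 593 and 387 TPM, and the lucOS male tumours 454, 342, 336 and 457. The lowest tumour was far above the highest healthy liver, and the 4 tumour groups overlapped. The log2 difference was 5.67 ± 0.19 (SE; limma, adjusted p = 7.86e-19), with a ratio of group means of 58.5. Col4a2 ran from 4.31 to 8.22 TPM in healthy liver and from 176 to 401 TPM in the tumours, a log2 difference of 5.33 ± 0.17 (adjusted p = 1.79e-19). Col4a5 and Col4a6, the chains of a second type IV network found in epithelia and smooth muscle, reached 3.38 to 21.1 TPM and 0.73 to 4.48 TPM in the tumours. Their log2 differences were 2.28 ± 0.19 and 1.57 ± 0.17, with no overlap with healthy liver. Col4a3 and Col4a4, the chains of the kidney glomerulus, stayed below 1.1 TPM in every library and were not tested.

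Col4a1 and Col4a2 lie head to head on chromosome 8. Their RefSeq starts (GRCm38.p6) are 21 bases apart, with Col4a2 starting at 11312805 on the plus strand and Col4a1 at 11312826 on the minus strand. By these starts the 2 transcripts overlap, and the stretch from one start to the other lies inside both, not before them. That stretch, both start bases included, is shown because this pair of genes leads the collagens in all 4 tumour groups. It is chr8:11312805-11312826, plus strand, and its capitals mark a GC box (GGGCGG), a motif of factors of the Sp family.
Col4a1 and Col4a2 start: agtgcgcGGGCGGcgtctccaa
The gene records themselves overlap by 85 bases, and whether the counting used strand is not given in the sources used here. Other collagens also have a collagen as neighbour: Col4a5 and Col4a6 are 1.3 kb apart, Col9a1 and Col19a1 4.9 kb, Col3a1 and Col5a2 24.6 kb, and Col6a1 and Col6a2 85.2 kb.

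All 11 fibrillar genes were tested and all 11 were higher in tumours, beside 71.8% of all genes, with a median log2 difference of 2.66. Among the 11, Col2a1, Col11a1, Col11a2 and Col24a1 entered the test only through tumours, so their calls are a description. All 11 were also called higher with median ratio scaling, whereas Col24a1 had a value of -0.15 with quantile normalization (limma, adjusted p = 0.310). Col1a1 encodes the chain present in duplicate in the type I trimer. It was at 1.18, 2.40, 2.61, 3.79, 1.84 and 1.57 TPM in healthy liver. In luc tumours its lowest, median and highest values were 34.6, 60.2 and 113 TPM, and in lucOS tumours 41.9, 57.0 and 149.99. In the luc male tumours it was at 175, 176, 282 and 125 TPM, and in the lucOS male tumours at 157, 82.6, 125 and 158. No tumour came near a healthy liver, and the luc male libraries all lay above the luc tumours without a sex. The log2 difference from healthy liver was 5.02 ± 0.26 (adjusted p = 2.97e-15).

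Col1a2, the other chain of type I, started from a higher level, 3.53 to 6.82 TPM in healthy liver, and reached 21.3 to 117 TPM in the tumours, a log2 difference of 3.33 ± 0.26 (adjusted p = 7.05e-12). Col3a1, whose product co-assembles with type I in reticular fibres, ran from 5.91 to 13.7 TPM in healthy liver and from 30.4 to 165 TPM in tumours, a difference of 2.88 ± 0.27 (adjusted p = 2.6e-10). Type V chains, which seed type I fibrils, were higher as well. Col5a1 ran from 1.57 to 2.54 TPM in healthy liver and from 29.1 to 155 TPM in tumours, a difference of 4.66 ± 0.24 (adjusted p = 2.02e-15). Col5a2 reached 8.46 to 41.2 TPM (3.21 ± 0.21), and Col5a3 6.40 to 89.1 TPM (2.66 ± 0.42), the latter overlapping healthy liver, whose highest library had 6.88 TPM. Col27a1 rose from a mean of 4.78 to group means of 23.0 to 40.7 TPM (2.37 ± 0.25).

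Cartilage-type fibrillar genes were present at low levels. Col2a1, the main collagen of cartilage, was listed at 0 in all 6 healthy livers and ran from 0.45 to 21.7 TPM in tumours, highest in 1 lucOS library (21.7) and 1 luc library (11.6). Col11a2 reached 0.86 to 12.1 TPM in tumours (1.73 ± 0.19). Col11a1 was also listed at 0 in all healthy livers. It reached 1 TPM only in the 4 luc male tumours (2.45, 1.42, 3.18 and 1.47 TPM) and stayed at or below 0.66 TPM in the other 16 tumours. Col24a1 stayed at or below 2.14 TPM (0.72 ± 0.15). Of the FACIT genes of cartilage fibrils, Col9a1 was listed at 0 in all healthy livers and at 0.09 to 4.84 TPM in tumours, Col9a2 reached at most 2.10 TPM, and Col9a3 ran from 1.82 to 33.2 TPM. Among 8 cartilage markers fixed as a list, Acan, the large cartilage proteoglycan, and the matrilins Matn1 and Matn3 were at 0 in all healthy livers. The list's sum ran from 9.30 to 17.9 TPM in healthy liver, from 69.5 to 253 TPM in luc and lucOS tumours, from 135 to 1837 in luc male and from 19.8 to 50.3 in lucOS male tumours. Of its members 4 were tested, and 2 were higher (Acan 5.17 and Sox5 0.89, the latter -0.22 with median ratio scaling and -0.40 with quantile normalization). Under those 2 scalings Acan stayed higher (4.88 and 4.83). Acan entered the test only through tumours, so its calls are a description. Chad was lower under both (-0.81 and -1.08, limma adjusted p = 0.00555 and 0.000301), and Cnmd was called in neither (0.05 and 0.03).

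Col18a1 moved the other way. It encodes the basement membrane collagen whose tail is released as endostatin, and it was the most abundant collagen of healthy liver at 294, 299, 280, 282, 256.3 and 296 TPM. Its lowest, median and highest values were 78.8, 112 and 140 TPM in luc tumours and 73.3, 82.5 and 132 in lucOS tumours. The luc male tumours had 105, 195, 82.2 and 178 TPM and the lucOS male tumours 138, 200, 135 and 226. Every tumour was below every healthy liver. The log2 difference was -1.23 ± 0.16 (adjusted p = 1.17e-07), beside 16.9% of all genes called lower, and the call held in each of the 4 tumour groups alone. The summed hepatocyte markers fell in the same libraries, as given above; their part in the Col18a1 difference was not tested. Col15a1, the other multiplexin and a basement membrane component of vessels and muscle, differed in the opposite direction: healthy livers had 1.04 to 1.61 TPM, tumours 11.8 to 79.7 TPM (3.54 ± 0.20, adjusted p = 1.51e-14).

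Of the FACIT genes 8 of 9 were tested, with 7 higher and 1 lower, beside 71.8% and 16.9% of all genes. The class median of 1.09 was close to the 1.03 of all genes. Among those higher, Col9a1, Col9a2, Col9a3, Col12a1 and Col19a1 entered the test only through tumours, so their calls are a description. Col12a1, found in tendon and stroma, rose from at most 0.42 TPM in healthy liver to 5.18 to 27.8 TPM (3.10 ± 0.26). Col9a3 (2.56 ± 0.29), Col16a1 (1.74 ± 0.19) and Col19a1 (1.19 ± 0.32) were also higher. Col14a1 was already at 10.7 to 20.9 TPM in healthy liver and at 8.36 to 115 TPM in tumours, so the groups overlapped. Its difference of 0.83 ± 0.30 (adjusted p = 0.0134) did not keep its sign: it was -0.41 with median ratio scaling (adjusted p = 0.189) and -0.14 with quantile normalization (adjusted p = 0.672). Col20a1 was lower (-0.52 ± 0.14, adjusted p = 0.00151), with 1.00 to 2.17 TPM in healthy livers against 0.29 to 2.29 TPM in tumours, a difference that was not called with only the AL15 healthy livers (-0.33, adjusted p = 0.113) or only the male tumours (-0.37, adjusted p = 0.0772). Col22a1 was below 1 TPM in all but 2 tumours (3.12 and 2.41 TPM) and was not tested.

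Type VI genes were higher too. Col6a1 ran from 2.92 to 4.34 TPM in healthy liver and from 7.57 to 371 TPM in tumours (3.32 ± 0.44, adjusted p = 1.88e-07), and Col6a2 from 1.53 to 3.14 and from 6.68 to 286 TPM (3.60 ± 0.41, adjusted p = 1.47e-08). Col6a3, the long chain of the same filament, was less variable at 7.79 to 39.7 TPM in tumours (3.16 ± 0.25). Between tumours Col6a1 spanned 49.0-fold and Col6a3 5.10-fold. Col6a4 reached 0.09 to 18.03 TPM (1.67 ± 0.38), while Col6a5 and Col6a6 stayed below 1 TPM in every library.

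Col8a1, a short chain network collagen of vessel walls and of the cornea, had the largest log2 difference of all tested collagens, and its tumours spanned 67.6-fold. It was at 0.06 to 0.18 TPM in healthy liver. In luc tumours it was at 9.62, 14.9, 236, 125, 5.53 and 269.5 TPM, and in lucOS tumours at 367, 5.43, 287, 36.2, 139 and 205. In the luc male tumours it was at 119, 76.8, 18.7 and 34.2 TPM and in the lucOS male tumours at 55.5, 143, 119 and 205. Within both groups without a sex, the lowest library was below 6 TPM and the highest above 269 TPM, and all 20 tumours were above healthy liver. The log2 difference was 6.00 ± 0.74 (limma, adjusted p = 5.22e-08). Col8a1 entered the test only through tumours, so this p is given as a description. Col8a2, its usual partner chain, stayed below 1 TPM in all 26 libraries. Col10a1, the network collagen of growth cartilage, reached at most 2.26 TPM (0.77 ± 0.19). It was not called with quantile normalization, at 0.01 (adjusted p = 0.969).

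Among the remaining collagens, Col28a1, known from peripheral nerve, was at or below 0.04 TPM in healthy liver and at 4.04 to 86.1 TPM in tumours (4.68 ± 0.41, adjusted p = 8.44e-11). Col26a1 was listed at 0 in all healthy livers and ran from 0.29 to 54.8 TPM in tumours (1.79 ± 0.46), with the next highest tumour at 9.95. Col23a1, a transmembrane collagen, reached 2.06 to 32.5 TPM (3.22 ± 0.30). Col28a1, Col26a1 and Col23a1 entered the test only through tumours, so their test values are given as a description. Col13a1, a transmembrane collagen of neuromuscular and cell junctions, overlapped between tumours and healthy liver (0.20 ± 0.31, adjusted p = 0.554) and was lower with median ratio scaling (-0.84). Col17a1 and Col25a1 stayed below 1.3 TPM, and Col7a1, the anchoring fibril collagen of skin, reached 0.45 to 2.31 TPM in tumours against at most 0.15 in healthy liver.

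Partner chains of one molecule did not move by equal amounts. For 5 of 7 listed pairs both chains were tested. The ratio of Col1a1 to Col1a2 was 0.21, 0.35, 0.43, 0.64, 0.46 and 0.45 in healthy liver. Its lowest, median and highest values were 1.18, 1.49 and 2.14 in luc tumours and 1.27, 1.52 and 1.87 in lucOS tumours. It was 2.49, 1.60, 3.98 and 1.68 in luc male tumours and 1.38, 0.95, 1.63 and 1.35 in lucOS male tumours. The ratio was below 1 in every healthy liver and at 0.95 or more in every tumour, with no overlap. On the log2(TPM + 1) scale the difference was 1.67 (two-sided exact permutation test over 26 libraries, p = 4.34e-06, which is the smallest that 230230 permutations can give, adjusted p = 2.17e-05).

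The Col5a1 to Col5a2 ratio was higher by 1.57 (exact permutation p = 0.000117, adjusted p = 0.000293). Healthy livers had a median of 1.39. Tumours without a sex had 5.17 (luc) and 5.93 (lucOS), but male tumours 1.66 (luc) and 2.92 (lucOS). Col4a1 to Col4a2 was higher by 0.35 (exact permutation p = 0.00126, adjusted p = 0.00158), and Col6a1 to Col6a2 lower by 0.28, written as -0.28 (exact permutation p = 0.00169, adjusted p = 0.00169), with medians of 2.00 in healthy liver and 1.24 to 1.35 in the tumour groups. For Col4a5 to Col4a6 the direction rested on the pseudocount, which weighs on a gene as low as Col4a6 in healthy liver: the difference was 0.69 with 1 TPM added (exact permutation adjusted p = 0.000398) and -0.96 with 0.1 TPM added (adjusted p = 0.00231). The TPM ratios with nothing added had a median of 54.6 in healthy liver (7.89 to 141, undefined in 1 library with Col4a6 at 0) and medians of 3.88 to 5.96 in the tumour groups (2.78 to 10.9 over all tumours), which goes with the negative sign.

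**Figure D3:**
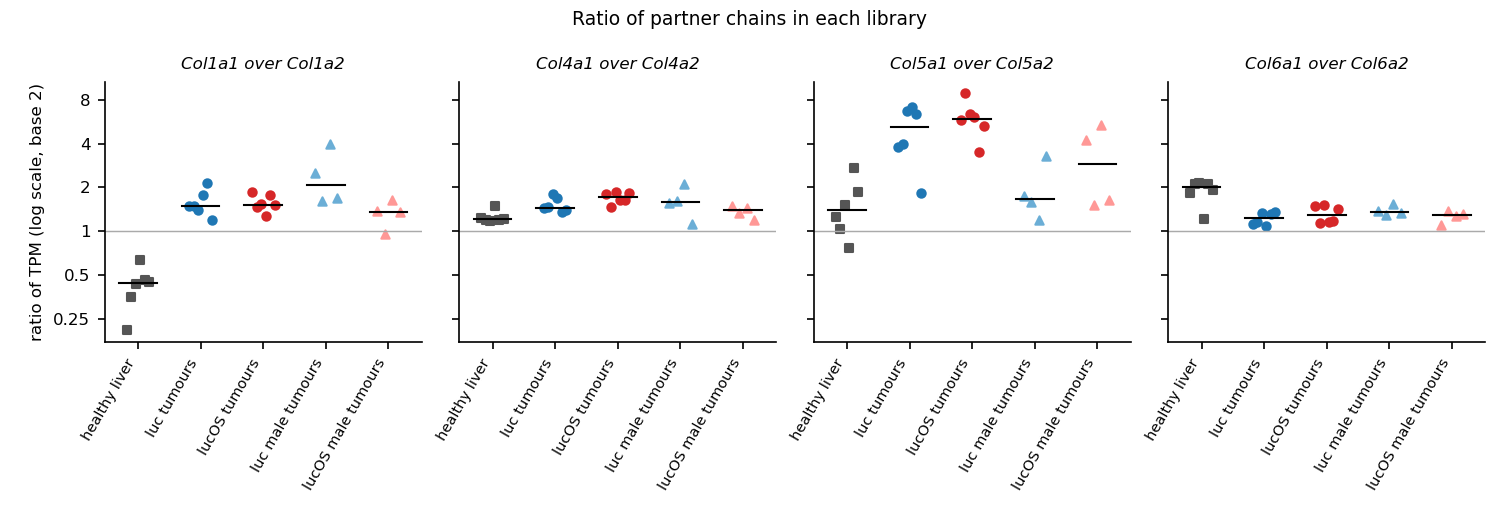
Ratio of TPM of partner chains on a log scale, one point per library, with group medians as black lines. Col1a1 over Col1a2 lies between 0.21 and 0.64 in healthy liver and between 0.95 and 3.98 in tumours; Col5a1 over Col5a2 is highest in the luc and lucOS tumours without a sex in the title; Col4a1 over Col4a2 and Col6a1 over Col6a2 overlap between tumours and healthy liver.

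Genes that make, export and bind collagen were read from the same test as lists. The counts are to be read against all genes, of which 71.8% were called higher and 16.9% lower, or 42.9% higher with median ratio scaling. In healthy liver a mean of 1 TPM was reached by 10 of 15 hydroxylation genes, 8 of 10 for folding and export and 4 of 8 for processing. For crosslinking it was 2 of 5, for proteoglycans 6 of 9 and for receptors 4 of 9. List genes at 1 TPM in no healthy liver could pass the filter only through tumours, so their calls are a description. Of 15 genes for prolyl and lysyl hydroxylation and sugar addition, 13 were higher (Plod2 4.72, P3h3 4.55, Crtap 4.49) and P4hb, the protein disulfide isomerase that is also the beta subunit of prolyl hydroxylase, was lower at -1.25. With median ratio scaling 11 were higher and 3 lower. Of 10 folding and export genes 7 were higher and 3 lower: Serpinh1, the collagen chaperone HSP47, rose from 7.46 to 11.1 TPM in healthy liver to 375 to 808 TPM in tumours (5.69 ± 0.11), Fkbp10 rose by 4.97, and Mia2 was lower (-3.84). With median ratio scaling only 3 of those 10 were higher and 6 lower, so the direction of the list as a whole rests on the scaling. The crosslinking oxidases were higher in 4 of 4 tested, with Loxl1 at 6.58, Loxl2 at 4.52 and Lox at 3.37. With median ratio scaling Loxl4 passed the filter too and was lower (-0.73), and with quantile normalization Loxl3 was not called (0.22). Of 8 procollagen processing genes 5 were tested and 3 were higher (Adamts2 4.08, Adamts14 2.77, Pcolce 1.72), with 3 higher and 1 lower under both other scalings. Of the 9 small leucine-rich proteoglycans, which bind fibrils, 6 were higher (Aspn 6.43, Ogn 3.50) and Dcn was lower (-1.67); with median ratio scaling 3 were higher and 2 lower. Of 9 collagen receptors 8 were tested and all 8 were higher (Ddr1 5.38, Mrc2 4.88, Ddr2 2.41); with median ratio scaling 6 were higher and Lair1 had a value of -0.09, and with quantile normalization Lair1 was lower (-0.50).

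Markers of mesenchymal cells differed as well. In healthy liver a mean of 1 TPM was reached by 5 of 10 fibroblast and smooth muscle markers and 5 of 8 bile duct markers. All 10 stellate cell and all 12 endothelial markers reached it. Markers at 1 TPM in no healthy liver could pass the filter only through tumours, so their calls are a description. Of 10 fibroblast and smooth muscle markers 8 were higher (Acta2 9.42, Myh11 8.29, Fap 5.04), and their sum ran from 24.3 to 33.9 TPM in healthy liver and from 481 to 4854 TPM in tumours. Of 10 stellate cell markers 4 were higher and 4 lower: Rgs5 6.24, Pdgfrb 5.96 and, among those that fell, Lrat, the retinol-storing enzyme of quiescent stellate cells, at -1.84. Their sum ran from 213 to 248 TPM in healthy liver and from 432 to 2818 TPM in tumours. Of 8 bile duct markers 7 were higher (Krt19 6.18, Spp1 4.28, Epcam 3.08), with sums of 32.9 to 41.1 and 360 to 2380 TPM. Of 12 endothelial markers 5 were higher and 2 lower (Emcn 2.63, Clec4g -2.38, Cdh5 2.03), with overlapping sums of 176 to 322 TPM in healthy livers against 151 to 528 TPM in tumours. The endothelial counts turn with the scale: 3 higher and 7 lower with median ratio scaling, 3 and 6 with quantile normalization. For fibroblast and smooth muscle markers they were 8 and 2, and 7 and 2, for stellate cell markers 4 and 5, and 3 and 5, and for bile duct markers 7 and 1, and 5 and 1. Of the 10 hepatocyte markers those with the largest differences were Fabp1 (-9.17), Cyp2e1 (-7.56) and Apoa2 (-6.96). The part of these cell types in the collagen differences was not tested.

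Across the 12 tumours without a sex in the title, Col1a1 and Col4a1 were each set against the other collagens. Pearson correlations on log2(TPM + 1) were computed between Col1a1 or Col4a1 and the other collagens reaching 5 TPM, 53 relations in all, after the values had been seen. For Pearson's r 9 of them passed an adjusted p of 0.05. By Spearman's rho Col4a1 also passed with Col12a1 (rho = 0.77, r = 0.71), Col6a1 (rho = 0.76, r = 0.66) and Col6a2 (rho = 0.75, r = 0.63), with adjusted permutation p = 0.0323, 0.0342 and 0.0343 for rho and 0.0585, 0.0968 and 0.106 for r. Without the 2 farthest libraries their r were 0.35, 0.53 and 0.50. Col1a1 with Col6a4 passed by r and not by rho (adjusted permutation p = 0.0547). Col1a1 rose with Col3a1 (r = 0.98, rho = 0.95, permutation p = 1e-05 for each, adjusted p = 0.000265 for r and 0.00053 for rho). That p is the smallest 100000 permutations can give. Col1a1 also rose with Col1a2 (r = 0.95, rho = 0.93, permutation p = 1e-05 and 5e-05, adjusted p = 0.000265 and 0.000883). Its relation to Col15a1 was next (r = 0.88, rho = 0.78, permutation p = 0.00038 and 0.00393, adjusted p = 0.00403 and 0.0298). Col6a4 (r = 0.86, rho = 0.71) and Col13a1 (r = 0.74, rho = 0.78) passed for r, with adjusted permutation p = 0.00724 and 0.0456; for rho the adjusted p was 0.0547 and 0.0298.

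Col4a1 rose with Col4a2 (r = 0.96, rho = 0.96, permutation p = 3e-05 and 2e-05, adjusted p = 0.00053 for each). The type V chain gene Col5a3 followed it (r = 0.91, rho = 0.90, permutation p = 4e-05 and 0.00023, adjusted p = 0.00053 and 0.00305), and Col8a1 less tightly (r = 0.78, rho = 0.83, permutation p = 0.00416 and 0.0013, adjusted p = 0.0315 and 0.0138). Col5a1 gave r = 0.73 (rho = 0.75, adjusted permutation p = 0.0456 and 0.0342), which fell to 0.42 without the 2 libraries farthest from the median of Col4a1, so that it rests on those libraries. For the other 8 relations r without the 2 farthest libraries lay between 0.71 and 0.97. Col1a1 and Col4a1 themselves gave r = 0.17 (rho = 0.47, permutation p = 0.592 and 0.127, adjusted p = 0.682 and 0.259). Off the line of the others lay 3 libraries with Col4a1 at 606 to 721 TPM and Col1a1 at 44.5 to 64.3 TPM.

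Within the 7 AL54 tumours r was 0.97 for Col1a1 with Col3a1, 0.93 with Col1a2 and 0.86 with Col15a1, and for Col4a1 it was 0.88 with Col4a2, 0.71 with Col5a3, 0.67 with Col8a1 and 0.26 with Col5a1; no adjusted permutation p passed there (smallest 0.11). The AL51 tumours were too few at 5. In the 8 male tumours none of the 53 relations passed: r was -0.08 for Col1a1 with Col3a1, -0.08 with Col1a2 and 0.58 for Col4a1 with Col4a2 (exact permutation adjusted p = 0.867, 0.867 and 0.329). The highest male values were those of Col1a1 with Col9a3 (r = 0.92, rho = 0.95, exact permutation adjusted p = 0.0598 and 0.0605). Col1a1 with Col4a1, at r = 0.17 in the 12 tumours, gave r = 0.86 in the males (rho = 0.90, exact permutation p = 0.00226 and 0.00456, adjusted p = 0.0598 and 0.121), and 0.94 without the 2 farthest libraries. The difference between the 12 and the 8 tumours was not tested. Among the males, luc male replicate 3 stood apart: it had the highest Col1a1 of all tumours (282 TPM) with a Col1a2 of 70.7, and the lowest tumour value of the smooth muscle gene Acta2 (81.0 TPM) and of Pdgfrb (28.1 TPM).

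**Figure D4:**
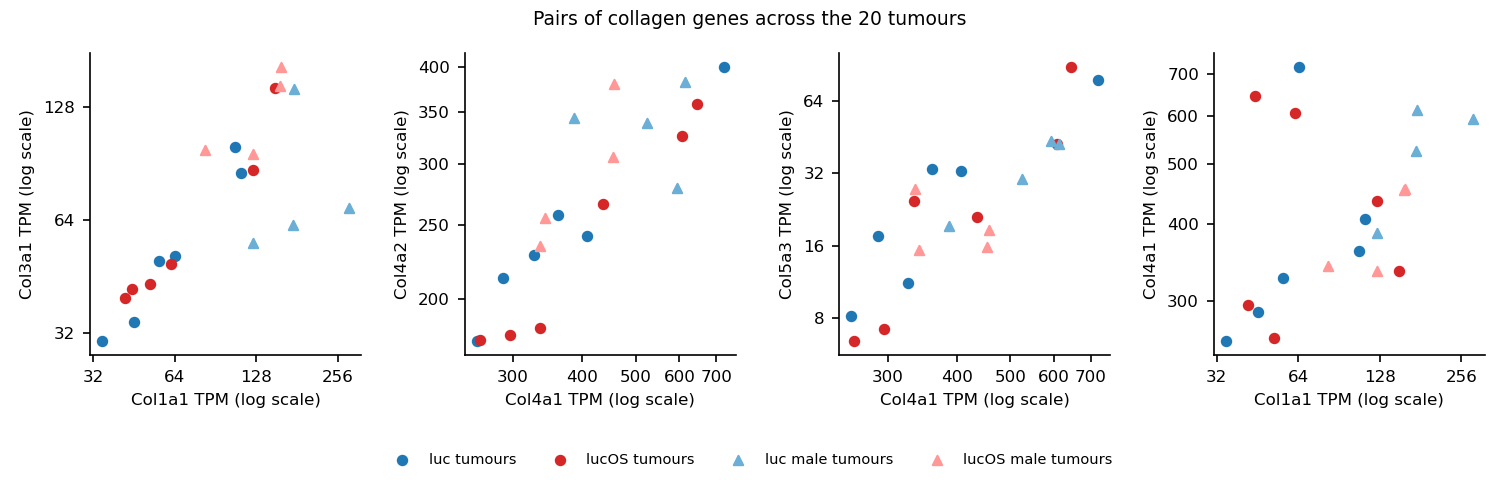
Pairs of collagen genes in the 20 tumours, TPM on log scales, circles for tumours without a sex in the title and triangles for male tumours. Col3a1 follows Col1a1 (r = 0.98) and Col4a2 and Col5a3 follow Col4a1 (r = 0.96 and 0.91) in the 12 circles. In the 8 triangles Col3a1 does not follow Col1a1, and no relation passed there. Col4a1 against Col1a1 gives r = 0.17 (rho = 0.47) in the circles and r = 0.86 in the triangles.

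In the tumours without a sex in the title, some transcripts moved with Col1a1 (Col1a2, Col3a1, Col15a1) or with Col4a1 (Col5a3, Col8a1). None of these relations passed in the male tumours, nor within the AL54 tumours alone. Because of these relations, the stretches before the starts of these genes are shown. Each is the 150 bases before the RefSeq start, 5′ to 3′ on the gene's strand (GRCm38.p6): Col1a2 chr6:4505468-4505617 and Col3a1 chr1:45311388-45311537 and Col15a1 chr4:47207862-47208011 on the plus strand, Col5a3 chr9:20815068-20815217 and Col8a1 chr16:57754738-57754887 on the minus strand. Capitals mark the letters of a TATA box (TATAAA, gene strand), a CCAAT box (CCAAT or its reverse ATTGG) or a GC box (GGGCGG or its reverse CCGCCC), at any position. RefSeq's table used here has no entry for Col1a1.
Col1a2: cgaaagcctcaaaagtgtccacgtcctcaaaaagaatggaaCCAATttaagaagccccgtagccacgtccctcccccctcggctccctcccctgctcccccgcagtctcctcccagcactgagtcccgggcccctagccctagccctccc
Col3a1: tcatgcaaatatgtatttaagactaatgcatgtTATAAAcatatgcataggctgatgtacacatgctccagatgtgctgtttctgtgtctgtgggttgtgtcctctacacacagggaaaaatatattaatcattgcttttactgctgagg
Col15a1: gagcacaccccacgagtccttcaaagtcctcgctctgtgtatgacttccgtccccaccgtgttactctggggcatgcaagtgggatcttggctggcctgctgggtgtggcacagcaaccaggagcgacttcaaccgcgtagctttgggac
Col5a3: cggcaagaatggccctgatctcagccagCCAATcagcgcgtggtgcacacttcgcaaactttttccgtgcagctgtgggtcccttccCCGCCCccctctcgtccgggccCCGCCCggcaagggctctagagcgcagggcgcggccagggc
Col8a1: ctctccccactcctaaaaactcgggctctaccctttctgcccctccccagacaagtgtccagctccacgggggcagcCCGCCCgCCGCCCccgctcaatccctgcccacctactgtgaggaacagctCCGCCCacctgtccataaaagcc
Col3a1 has the letters TATAAA with their first base 117 bases before the start, Col1a2 a CCAAT box at 109 bases, Col5a3 a CCAAT box at 122 and GC boxes at 63 and 41, and Col8a1 GC boxes at 73, 66 and 23. Col15a1 has none of these letters. In the full 250 bases before the start, 38 windows of 35 collagen genes were matched among 32851 windows of all genes. A GC box was in 57.9% of the collagen windows and 32.7% of all, a CCAAT box in 34.2% and 33.8%, and the letters TATAAA in 13.2% and 7.59%. Those letters began 32 bases before the start in Col10a1. In Col17a1, Col3a1, Col11a2 and Col13a1 they began 91 to 237 bases before it. Whether they work as a TATA box was not tested. The letters GTGGGAA (both strands), the site of RBPJ through which NICD acts, were in 5.26% of collagen windows, before Col10a1 and Col4a5, and in 5.42% of all windows. The letters CACGTG, an E-box that MYC binds, were in none of the 38 collagen windows and in 6.02% of all. Absence from these windows says nothing of sites elsewhere.

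Whether the antigen carried with luciferase bore on collagen was asked by setting lucOS against luc tumours. Among tumours without a sex in the title, limma called 0 of 15453 genes (0%), with 385 at an unadjusted p under 0.05, and so no collagen. The 3 collagens of smallest p were Col26a1 (log2 difference 1.65 ± 0.64), Col24a1 (0.49 ± 0.22) and Col6a3 (-0.71 ± 0.34), each with a limma adjusted p of 0.997. The Col26a1 difference included the library at 54.8 TPM. Col4a1 ran from 258 to 721 TPM in luc and from 261 to 645 TPM in lucOS tumours, so the luc range held the whole lucOS range. In data simulated at this group size the same test found 77% of genes changed by a log2 of 1 and 94% of those changed by 2. In that set 100 genes were changed by each size at once, and recovery with fewer changed genes was not worked out. The changed genes were drawn from those with a mean log2(TPM + 1) above 2, with normally distributed noise. These shares therefore do not cover lower collagens, and they were not worked out for collagens alone.

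Between the male groups 0.349% of 15453 genes were called. The only collagen among them was Col11a1, which was lower in lucOS male tumours (0.45, 0.46, 0.15 and 0.10 TPM) than in luc male tumours (2.45, 1.42, 3.18 and 1.47). The groups did not overlap and the log2 difference was -1.25 ± 0.20 (adjusted p = 0.0179), beside 0.0906% of all genes called lower. This gene passed the filter only through the luc male libraries, its levels were low, and the call was lost with a pseudocount of 0.1 (-2.57, adjusted p = 0.0629), when only the 2 male groups were fitted (adjusted p = 0.330) and without lucOS male replicate 2 (adjusted p = 0.0676). Without any of the luc male libraries it no longer passed the filter. In a test of whether the antigen difference itself depended on the male label, limma called 0 genes (0%; 1842 at an unadjusted p under 0.05). The smallest p among collagens were those of Col11a1 (-1.17 ± 0.26, unadjusted p = 0.000247, adjusted p = 0.332), Col9a3 (-1.85 ± 0.64, adjusted p = 0.341) and Col14a1 (1.77 ± 0.64, adjusted p = 0.354).

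Male tumours of the AL75 series were then set against tumours without a sex. For luc, 8 of 35 collagens were higher and none lower, beside 16.9% of all genes called, 8.94% higher and 7.97% lower. The collagen median was 0.49 and the median of all genes 0.05. Of all calls 52.9% were higher, against 48.7% with median ratio scaling and 41.1% with quantile normalization, with 7 collagens higher under either. The 8 were 3 fibrillar genes (Col1a1, Col11a1, Col11a2), 3 type VI genes (Col6a1, Col6a2, Col6a4) and both tested transmembrane genes (Col13a1, Col23a1). Col1a1 was at 34.6 to 113 TPM in luc and 125 to 282 TPM in luc male tumours, with no overlap (1.49 ± 0.38, adjusted p = 0.0131). Without luc male replicate 3 its difference was 1.28 (adjusted p = 0.0597). Col11a1, for which the limit above holds, differed by 1.22 ± 0.18 (adjusted p = 0.000216); since it enters the test only through the group where it is high, this is given as a description.

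Col6a1 was at 82.7, 371, 202 and 32.6 TPM in luc male tumours and at 9.53, 23.5 and 94.3 TPM (lowest, median, highest) in luc tumours, which overlap (2.08 ± 0.69, adjusted p = 0.0461). Col6a2 showed the same order of libraries, at 60.1, 286, 131 and 24.6 TPM (1.90 ± 0.64, adjusted p = 0.0493). Both calls were close to the threshold, and 9 and 10 of 18 alternatives lost them. Col6a4 (2.00 ± 0.59, adjusted p = 0.0265), Col23a1 (1.62 ± 0.47, adjusted p = 0.0245), Col13a1 (1.46 ± 0.44, adjusted p = 0.0303) and Col11a2 (0.92 ± 0.30, adjusted p = 0.0402) were called in the main comparison and lost in 7, 5, 5 and 11 alternatives. Leaving out luc male replicate 3, 0 collagens were called, and without luc male replicate 2 there was 1. Fitted with the 2 luc groups only, 4 were called. Of the fibroblast and smooth muscle markers 2 of 10 were higher in luc male tumours (Fbln2 2.28, Thy1 1.27) and none lower, with a list median of -0.10 and values down to -1.70; the mean of their summed TPM was 3137 ± 677 (SD, n = 6) in luc and 2108 ± 1909 (SD, n = 4) in luc male tumours, which overlap. Of the stellate cell markers 1 of 10 was higher (Ecm1 1.49; list median 0.16), and of the endothelial markers 2 of 12 (Tek 2.77, Kdr 0.87; list median 0.49). Their part in the collagen differences was not tested.

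For lucOS, 6 of 35 collagens were higher in male tumours and none lower, beside 24.4% of all genes called, 15.2% higher and 9.29% lower. The share of collagens called higher was thus near that of all genes. Of all calls 62.0% were higher, against 40.5% with median ratio scaling and 36.9% with quantile normalization, where 5 and 4 collagens were higher. The collagen median was 0.50 and that of all genes 0.13. The 6 were Col14a1, Col19a1, Col15a1, Col18a1, Col4a5 and Col1a2. The test of the difference between luc and lucOS called 0 genes, as given above. Col15a1 was at 44.7, 28.1, 29.3 and 79.7 TPM in lucOS male and 11.8, 16.8 and 30.2 TPM (lowest, median, highest) in lucOS tumours, and the ranges overlapped (1.18 ± 0.30, adjusted p = 0.0101). Col18a1 was at 135 to 226 TPM against 73.3 to 132 TPM, without overlap (0.94 ± 0.25, adjusted p = 0.0116). Col14a1 was at 51.8, 92.3, 25.5 and 115 TPM against 8.36 to 35.7 TPM (1.65 ± 0.45, adjusted p = 0.0147).

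Col4a5 differed by 0.92 ± 0.25 (adjusted p = 0.0148), Col19a1 by 1.65 ± 0.50 (adjusted p = 0.0245) and Col1a2 by 1.10 ± 0.38 (adjusted p = 0.0438). Col19a1 reached 1 TPM in 4 lucOS male, 2 lucOS, 1 luc male and 0 luc tumours. Without the lucOS male libraries it would not have passed the filter, so its call is given as a description. That call was lost in 6 of 17 alternatives, and the call of Col1a2 in 11 of 18. Col14a1, Col4a5, Col15a1 and Col18a1 lost theirs in 2, 2, 1 and 1 of 18. Without lucOS male replicate 4, which had the highest Col14a1, Col15a1, Col18a1, Col4a5 and Col1a2 of its group, 0 collagens were called, and without lucOS male replicate 2 there were 3. Col1a2 was not called with median ratio scaling (0.97, adjusted p = 0.0645) or quantile normalization (1.02, adjusted p = 0.0568), nor Col4a5 with the latter (0.73, adjusted p = 0.0592). In the same groups the hepatocyte sum had a mean of 2092 ± 2121 TPM (SD, n = 6) in lucOS and 8038 ± 7158 TPM (SD, n = 4) in lucOS male tumours. The ranges overlapped, at 485 to 5904 TPM and 1269 to 18006 TPM. In lucOS male tumours 5 of 12 endothelial markers (Plvap 1.18, Tie1 1.00, Kdr 0.96), 4 of 10 fibroblast and smooth muscle markers (Tcf21 1.87, Pdgfra 1.52, Fbln2 1.48) and 4 of 9 small leucine-rich proteoglycans (Dcn 1.79, Prelp 1.57, Lum 1.44) were higher. Their part in the collagen differences was not tested.

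**Figure D5:**
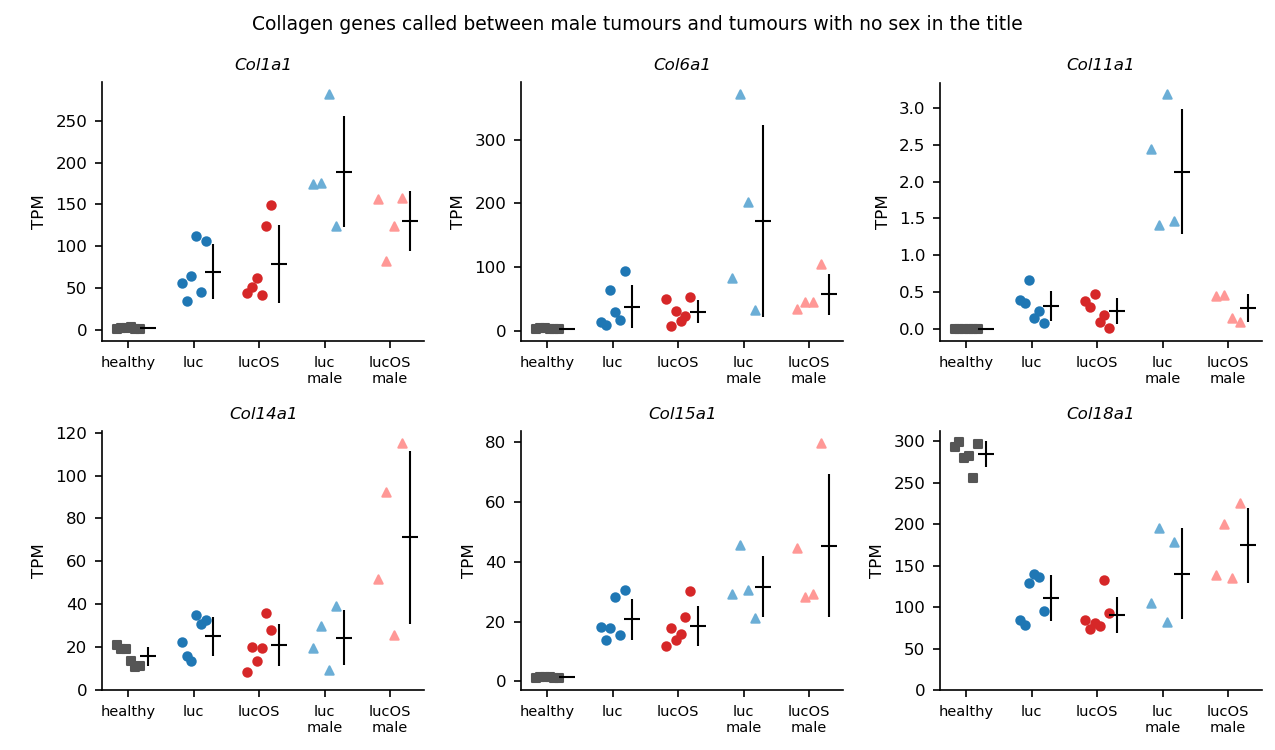
TPM of 6 collagens called between male tumours and tumours without a sex in the title, one point per library, with the group mean and 1 SD beside the points. Col1a1 and Col11a1 are high in luc male tumours, Col6a1 spreads from 32.6 to 371 TPM there, and Col14a1, Col15a1 and Col18a1 are high in lucOS male tumours.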

How the data were processed

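Bulk RNA-seq of 26 liver libraries was used; the 15 T cell receptor and 15 single-cell samples were not used here. The authors deposited TPM values per gene in one table; the submitters' processing notes list TopHat2, featureCounts, DESeq2 and mm10, without versions or roles. TPM keeps no read depth. The 18 libraries without a male title share 1 column sum, which male libraries miss by -3.8 to 256.3 TPM. Rows named as dates or numbers (27) or sharing a name (2 rows) were left out.

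Groups came from the titles, and replicate numbers follow accession order. Here, limma 3.58.1 in R 4.3.3 (trend, robust) was run on log2(TPM + 1) over genes with at least 1 TPM in 4 libraries, with Benjamini-Hochberg adjustment and a threshold of 0.05; tumour comparisons used the 20 tumours only. The test was tested on simulated data. The members, lists and rules were chosen with earlier results of these data known. All 44 genes and all list genes were found (6 list genes by an older symbol). Every member is named; levels are given for those reaching 5 TPM, test values for up to 12 called members per comparison and for the main liver collagens, up to 3 called genes per list, or the 3 smallest p where none was called. Alternatives were a pseudocount of 0.1, other filters and scalings, array weights, subsets and leaving out each library. Promoter sequences and positions are from RefSeq, GRCm38.p6.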

Additional observations from a re-analysis of the deposited data

Results flagged for a closer look

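Each group of each of the 28 collagens that reached 5 TPM was searched for a single library far from the others, by Dixon's ratio of gap to range. For normally distributed values chance gives about 1 in 20 groups, and 18 of 140 were marked. The TPM were not transformed and all but 1 of the marks are high values; the chance rate for such values was not measured.

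The luc tumour labelled replicate 3 stood out in several genes. It had 721 TPM of Col4a1 (others 258 to 408), 400.9 TPM of Col4a2 (others 176 to 258), 78.3 TPM of Col5a3 and 11.6 TPM of Col2a1. Replicate 3 of the lucOS tumours had 21.7 TPM of Col2a1 and 54.8 TPM of Col26a1, replicate 1 had 154.8 TPM of Col5a1 (others 75.0 to 103) and 23.4 TPM of Col12a1, and replicate 5 had 132 TPM of Col18a1.

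Among male tumours, luc male replicate 2 had 109.8 TPM of Col1a2 (others 70.0 to 74.3) and 143 TPM of Col3a1 (others 55.7 to 68.7). Luc male replicate 3 had 12.1 TPM of Col11a2, and luc male replicate 4 had 14.0 TPM of Col4a5 and a low Col13a1 of 4.08 TPM (others 12.2 to 13.4). Replicate 4 of the lucOS male tumours had 104.8 TPM of Col6a1 and 79.4 TPM of Col6a2. In healthy liver, replicate 4 had 2.54 TPM of Col5a1 and 3.14 TPM of Col6a2.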

How the results depend on the processing

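Between tumours and healthy liver, leaving out each library gave 13794 to 14000 genes called, 31 to 32 collagens higher and 2 lower. The signs of Col14a1 and Col24a1 were not stable: Col14a1 was -0.41 with median ratio scaling, -0.14 with quantile normalization and -0.034 with AL51 tumours only, and Col24a1 -0.15 with quantile normalization. Collagens called lower were 1 with a filter of 5 TPM, with AL15 healthy livers only and with male tumours only. The Col4a5 to Col4a6 ratio reversed to -0.96 with a pseudocount of 0.1; none of the 5 chain ratios lost its call when a library was left out. Between lucOS and luc without a sex, 0 to 1 genes were called with a library left out. Between the male groups that range was 0 to 578 genes, with 0 to 1 collagens higher and 0 to 1 lower; 34 genes were called with no filter and 0 with only those groups, and collagens lower were 0 with a pseudocount of 0.1, with a filter of 5 TPM and with only those groups. For male luc tumours 0 to 10 collagens and 1488 to 3045 genes were called with a library left out, and 4 collagens with only the luc groups. For male lucOS tumours the ranges were 0 to 9 collagens and 1863 to 4792 genes, and for the interaction 0 to 1 genes. The Col4a1 relation to Col5a1 fell to 0.42 without the 2 farthest libraries. The cause of these changes was not tested. No paired analysis was possible because the titles give no replicate numbers. Depth is unknown in TPM, so genes near 1 TPM have a precision that cannot be stated.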
